A study of Mus musculus with 21 samples.

Results

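C3H/10T1/2 cells carrying histone H2B with glutamate 76 changed to glutamine (E76Q) were compared with cells of the same line carrying H2B with glutamate 71 changed to glutamine (E71Q). C3H/10T1/2 is a line of mesenchymal progenitor cells derived from mouse embryos. The substituted amino acid is the same in both groups and the residue differs, the residues lying 5 positions apart in the protein. There were 3 E76Q and 3 E71Q libraries out of 21 in the series, and 3 libraries of cells with wild-type H2B (WT) are given beside them for orientation. The comparison covers the 11791 of 24091 genes whose mean over the 6 mutant libraries was at least 1 TPM, a transcript abundance that is normalized to transcript length and to a fixed total in each library. The series' design text calls the samples of the line independent biological replicates, 3 of a kind, but no label says that the cultures were separate. The p-values therefore reflect the spread among the libraries alone, and that spread may be technical. The labels name 1 genotype for each group and no separate lines or clones, and they do not say what drives the H2B or whether the cells' own H2B genes were kept. A difference between the lines that carry the mutants therefore cannot be told apart from a difference between the substitutions.

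Histone H2B pairs with H2A, and such pairs bind the H3-H4 core to close the nucleosome around which DNA is wound. Glutamates 71 and 76 both sit in the histone fold of H2B, where glutamate 76 contacts H4, and both residues are among those found changed in the H2B of tumors. C3H/10T1/2 cells can be driven in culture towards cartilage, bone, fat or muscle, and are used to study how mesenchymal cells choose a fate.

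The 6 libraries fell into their own groups. Correlations of log2(TPM + 1) across genes, which are not independent replicates, were 0.963 to 0.966 between E76Q libraries and 0.952 to 0.97 between E71Q libraries, and at most 0.924 between the groups. E71Q replicate 1 stood apart from its mates: the median SD of a gene on the log2 scale was 0.0871 in E76Q and 0.218 in E71Q, and 0.0779 in E71Q without that library. The locus Mir6236, annotated as a microRNA, took 9.02% to 15% of all TPM in E76Q and 5.47% to 21.2% in E71Q, where the highest share was in replicate 1. The counts of called genes, the list counts and the named genes were therefore also computed without E71Q replicate 1 and without each of the other 5 libraries, and the values by chromosome without E71Q replicate 1 alone. The depth of the libraries is unknown, because TPM keeps no read total.

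The labelled cell type was checked against markers. Of 13 mesenchymal stromal markers 10 averaged 1 TPM or more, and the summed level of all 13 was 9200 to 9700 TPM in E76Q and 9170 to 10500 TPM in E71Q. Most of that sum came from Vim, Fn1 and Ly6a, with means of 4510, 2377 and 1959 TPM in E76Q. Other members were low: Thy1, Nt5e and Cd34 averaged under 1 TPM in both mutants, and Thy1 had a mean of 66 TPM in WT. Eng had means of 1.78 TPM in E76Q, 1.96 TPM in E71Q and 20.7 TPM in WT. Endothelial markers summed to 3.62 to 4.15 TPM in E76Q and 1.44 to 2.86 TPM in E71Q, blood markers to 1.27 to 1.95 TPM and 1.66 to 2.44 TPM, and skeletal muscle markers to 14.5 to 15.5 TPM and 12.1 to 15.4 TPM, in the same order. Epithelial markers summed to 5.7 to 6.43 TPM in E76Q and to 42.3 to 366 TPM in E71Q, almost all of it from Krt14, while Epcam, Cldn3, Cldn4, Krt18 and Krt19 were listed at 0 in all 6 libraries. Neuron and glia markers summed to 14.1 to 14.4 TPM in E76Q and 45.8 to 56.4 TPM in E71Q, mostly from Map2, while Nefl, Nefm and Olig2 were listed at 0. In bulk RNA, fewer cells of a type and less RNA per cell cannot be told apart.

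Of the 11791 genes, 2447 (20.8%) passed an adjusted p of 0.05 (limma's moderated test on log2(TPM + 1), Benjamini-Hochberg), with 1194 higher in E76Q (risen, 10.1%) and 1253 lower in E76Q (fallen, 10.6%). Most differences were small: 1590 of the called genes differed by less than 1 on the log2 scale, while 466 genes rose at least 2-fold (3.95%) and 391 fell at least 2-fold (3.32%). The 95% interval of the difference lay within 1 on the log2 scale either side of 0 for 9177 genes (77.8%), of which 904 were called. The 3 E76Q libraries did not overlap the 3 E71Q libraries in 2414 of the called genes, against 4962 (42.1%) of all tested genes. For comparison, E113Q minus E71Q gave 2882 called genes of 11862 (24.3%) and E113Q minus E76Q gave 2711 of 11923 (22.7%). The pair of E76Q and E71Q was chosen as the most similar of the 3 pairs of glutamine mutants, so nothing is read from the order of these counts. The 3 counts share libraries, and the differences between them were not tested.

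The balance of directions rested partly on E71Q replicate 1. Without it 817 genes rose (6.93%) and 1600 fell (13.6%), so that the share of risen genes among those called was 33.8%, against 48.8% with all libraries and 52.0% after the levels were rescaled by median ratios. Of the genes called with all libraries, 793 of the risen (66.4%) and 1156 of the fallen (92.3%) were called the same way without that library, and none changed sign. Among genes that changed at least 2-fold, 428 of the 466 risen and 380 of the 391 fallen were called the same way without it. A further 444 fallen and 24 risen genes passed only without it. In all, 1503 of the called genes (61.4%) were called the same way without each of the 6 libraries in turn.

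**Figure D1:**
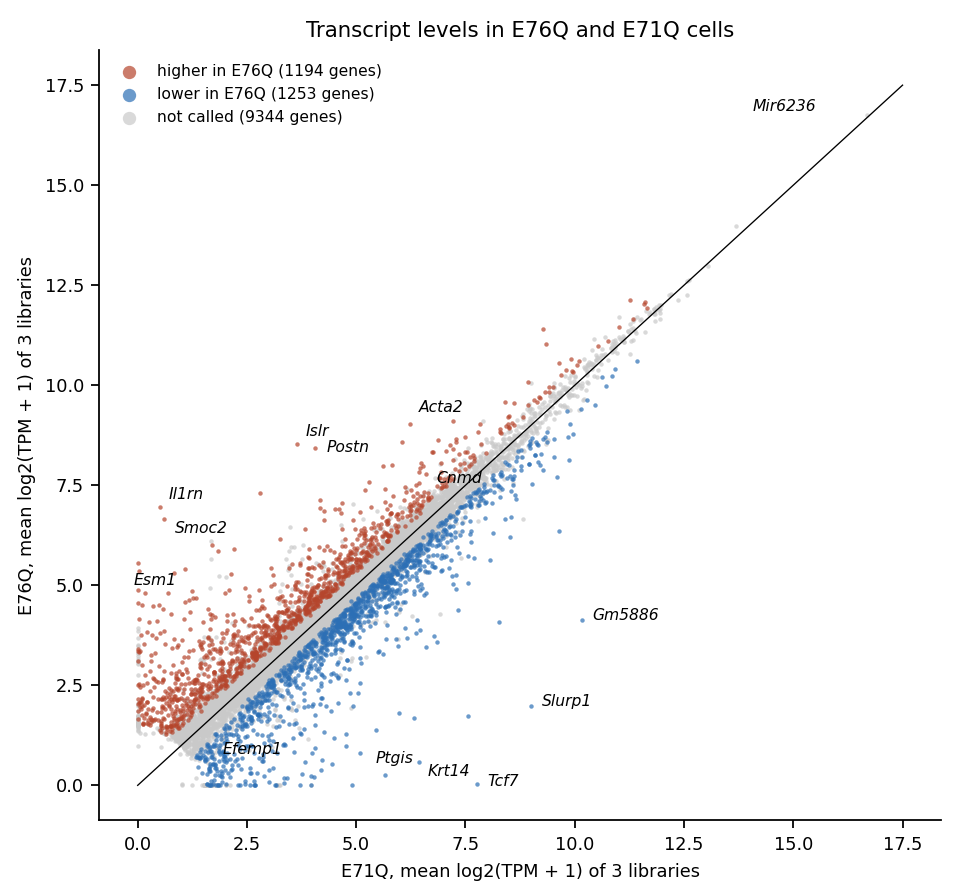
Each point is 1 of the 11791 tested genes, with its mean log2(TPM + 1) over 3 E76Q libraries on the y axis and over 3 E71Q libraries on the x axis, both log scales, and the line marks equal levels. The 1194 genes higher in E76Q are red, the 1253 lower are blue and the rest are grey, and most called genes lie close to the line while Il1rn, Smoc2 and Esm1 lie far above it and Tcf7, Slurp1 and Gm5886 far below it.

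Of the genes with the largest rises, Il1rn, Smoc2 and Esm1 had less than 1 TPM in every E71Q library. Il1rn, the secreted antagonist of the interleukin-1 receptor, had 121, 126 and 124 TPM in E76Q and 0.723, 0.265 and 0.341 TPM in E71Q, against 1.82 to 2.51 TPM in WT. Every E76Q library was thus far above every E71Q and WT library, and the difference was 6.44 ± 0.19 on the log2 scale (SE, n = 3 each; limma adjusted p = 2.07e-13). Smoc2, a secreted calcium-binding matrix protein, had 94.6, 105.2 and 97.7 TPM in E76Q and 0.428, 0.502 and 0.626 TPM in E71Q (log2 difference 6.04 ± 0.37; limma adjusted p = 1.42e-09). WT cells had 375 to 399 TPM of Smoc2, so that both mutants lay below WT, E71Q by far more. Esm1, a secreted proteoglycan known from endothelial cells, had 46.0, 47.2 and 45.9 TPM in E76Q and was listed at 0 in all 3 E71Q libraries, with 4 to 4.46 TPM in WT.

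Rap1gap, which switches off the small GTPase Rap1, had 47.6, 36.2 and 36.9 TPM in E76Q and at most 0.0412 TPM in E71Q, while its WT libraries ranged widely (0.578, 23.7 and 14.5 TPM). Islr, a secreted leucine-rich repeat protein of stromal cells, had 364, 382 and 354 TPM in E76Q and 6.89, 12.9 and 16.8 TPM in E71Q. Aspn (asporin), a small leucine-rich proteoglycan that binds collagen, had 148, 160 and 165 TPM in E76Q and 4.77, 5.88 and 7.59 TPM in E71Q. In all of them the 2 sets of mutant libraries were wide apart, with log2 differences of 5.32 ± 0.88 for Rap1gap, 4.88 ± 0.59 for Islr and 4.50 ± 0.45 for Aspn. Postn (periostin), a matricellular protein of connective tissue, had 338, 343 and 359 TPM in E76Q and 5.46, 23.0 and 29.0 TPM in E71Q. Its log2 difference was 4.38 ± 0.52, and 3.69 without E71Q replicate 1, the lowest library. Actg2, the gamma actin of smooth muscle, had 38.2, 38.7 and 39.2 TPM in E76Q and 0.881, 0.681 and 0.806 TPM in E71Q (log2 difference 4.47 ± 0.14). Ms4a4d, a membrane protein of the MS4A family, differed by 4.65 ± 0.29, and Ldb2, a LIM domain-binding cofactor of transcription, by 4.40 ± 0.29. Of the 12 largest rises, 2 were microRNA loci inside other genes, Mir6950 in Loxl2 and Mir8109 in Neto2. They had 20.7 to 34.0 TPM in E76Q and were listed at 0 in E71Q. In WT, Mir6950 had 0, 17.1 and 0 TPM and Mir8109 had 16.7, 0 and 0 TPM. Both loci are under 200 bases long, where a few reads can give such a TPM. The number of reads behind these values is unknown.

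Of the named genes, the one with the largest fall was nearly silent in E76Q. Tcf7, a transcription factor that acts at the end of the Wnt pathway, had 0, 0.0609 and 0 TPM in E76Q and 227, 163 and 272 TPM in E71Q, against 6.65 to 11.6 TPM in WT. Its libraries lay below WT in E76Q and above WT in E71Q (log2 difference -7.73 ± 0.63; limma adjusted p = 7e-08). The annotated span of Tcf7 overlaps that of Skp1, and reads of overlapping genes may be shared. Slurp1, a small secreted protein best known from skin, had 4.36, 1.86 and 2.96 TPM in E76Q and 1271, 324 and 319 TPM in E71Q (log2 difference -7.02 ± 0.76, and -6.36 without E71Q replicate 1). Krt14, the keratin 14 of basal epithelial cells, had 0.459, 0.588 and 0.469 TPM in E76Q and 363, 40.8 and 40.8 TPM in E71Q (log2 difference -5.84 ± 0.77, and -4.80 without E71Q replicate 1). Both genes were highest in E71Q replicate 1. WT had 27.0 to 31.3 TPM of Slurp1, between the mutants, and at most 2.08 TPM of Krt14. Trp63, another epithelial marker, went the other way, with 4.43, 4.04 and 4.44 TPM in E76Q and 1.02, 0.998 and 0.573 TPM in E71Q (log2 difference 1.52 ± 0.29). A part of epithelial cells in these values was not tested, and 5 of the 14 markers were at 0.

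Ptgis, the enzyme that makes prostacyclin, had 0.178, 0.137 and 0.272 TPM in E76Q and 35.1, 60.7 and 55.5 TPM in E71Q, with WT at 4.44 to 5.42 TPM (log2 difference -5.39 ± 0.16; limma adjusted p = 2.07e-13). Eln, which encodes elastin, had 3.08, 2.02 and 1.73 TPM in E76Q and 8.46, 199 and 270 TPM in E71Q, while WT cells had at most 0.206 TPM. E71Q replicate 1 lay far below its mates here, and the log2 difference was -4.63 ± 0.93 with it and -6.17 without it. Serpinb7, a serine protease inhibitor, had 0.653, 0.753 and 0.812 TPM in E76Q and 47.3, 26.0 and 29.1 TPM in E71Q. Wfdc18, a secreted protein with a whey acidic protein domain, had 18.6, 15.3 and 13.9 TPM in E76Q and 287, 319 and 319 TPM in E71Q, with 11.7 to 14.2 TPM in WT. WT had 1.36 to 1.68 TPM of Serpinb7. For both genes the E71Q libraries stood far above the E76Q and the WT libraries (log2 differences -4.29 ± 0.19 and -4.20 ± 0.65). Gm5886, listed as a transcribed pseudogene, had 14.5 to 20.9 TPM in E76Q and 755 to 1505 TPM in E71Q, and reads of a pseudogene may be shared with its copies. The other 3 of the 12 largest falls were short RNA loci, where a few reads can give a high TPM and the number of reads is unknown. Snord38a was listed at 0 in E76Q and WT and had 24.0 to 33.1 TPM in E71Q. Mir7662 in Tspan15 and Snord22 in Snhg1 were listed at 0 in E76Q replicates 2 and 3 but not in replicate 1, and neither was called without E71Q replicate 2, E76Q replicate 2 or E76Q replicate 3. Snord22 was also not called without E71Q replicate 3.

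**Figure D2:**
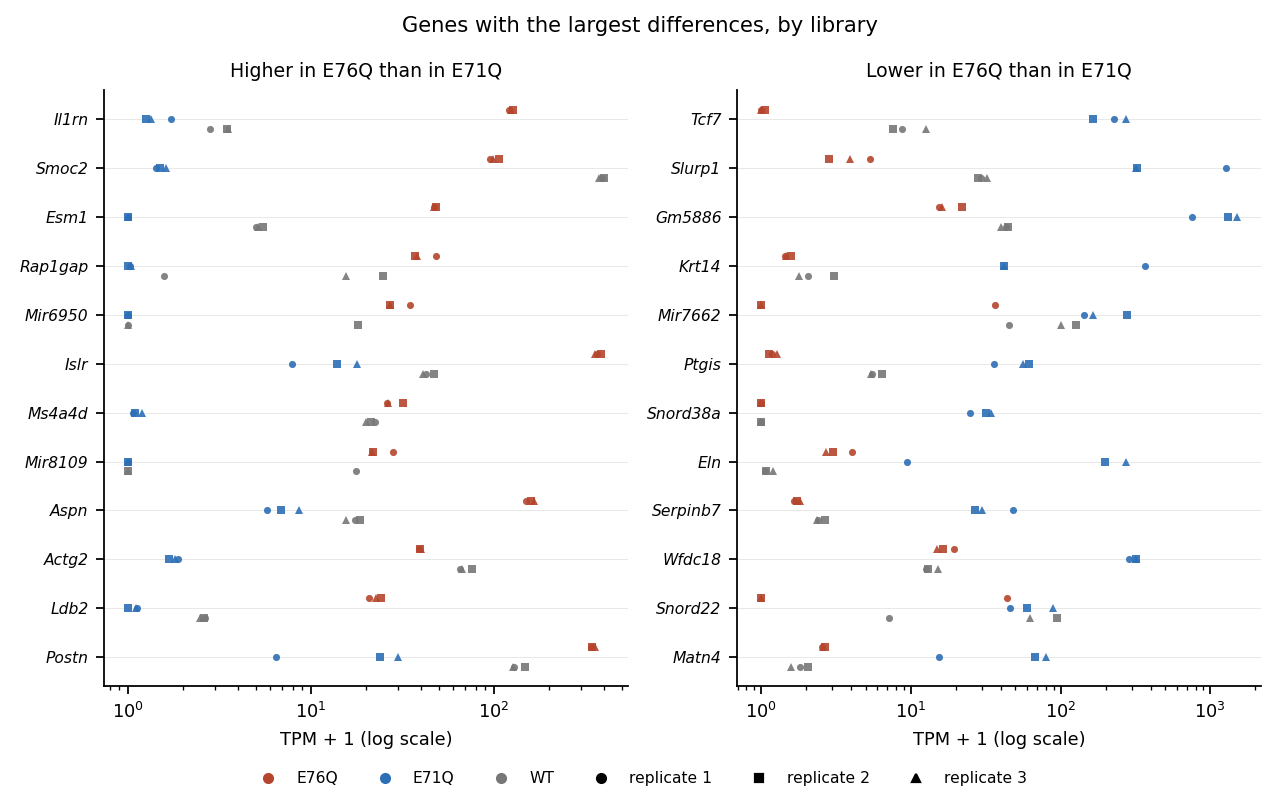
TPM + 1 in each library (log scale) for the called genes that rose most (12) and fell most (12) in E76Q against E71Q, with E76Q in red, E71Q in blue and WT in grey, and a marker shape for each replicate. The 3 E76Q libraries lie close together for most genes, while E71Q replicate 1 lies away from its mates for Slurp1, Krt14, Eln, Matn4 and Postn.

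Of 30 tested interferon-stimulated genes 23 rose in E76Q and none fell. These genes are switched on when interferons bind their receptors, and their products limit viral replication and load peptides onto MHC class I. Among all tested genes 10.1% rose, and the rises of the list ran from 0.51 to 2.38 on the log2 scale. The median difference over the 30 members was 1.11, beside 0.04 over all tested genes. Relative to WT, the median over the members was 0.82, 0.89 and 0.79 in the E76Q libraries and 0.13, -0.19 and -0.18 in the E71Q libraries. The number of risen members was 21 without E71Q replicate 1, and 16 to 19 without each of the other libraries. The lists were chosen with earlier results of these data known.

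Ifi44, an interferon-induced protein, had 127, 135 and 134 TPM in E76Q and 33.0, 21.9 and 20.4 TPM in E71Q, against 22.1 to 24.7 TPM in WT. Its 3 E76Q libraries were high and the E71Q libraries were near WT (log2 difference 2.38 ± 0.41; limma adjusted p = 0.000316). Isg15, a ubiquitin-like protein that is joined to other proteins, had 584, 578 and 504 TPM in E76Q and 192, 131 and 126 TPM in E71Q (log2 difference 1.91 ± 0.32; limma adjusted p = 0.000238). Oasl2, a relative of the enzymes that sense double-stranded RNA, had 46.4, 47.2 and 44.6 TPM in E76Q and 20.4, 9.60 and 8.84 TPM in E71Q. Mx1, named for a GTPase that blocks viruses, is listed as a transcribed pseudogene in RefSeq. It had 5.59, 5.45 and 6.74 TPM in E76Q and 0.850, 0.922 and 1.26 TPM in E71Q. Neither gene's groups overlapped (log2 differences 1.85 ± 0.39 and 1.78 ± 0.50), and the call of Mx1 was lost without E76Q replicate 3. In Ifi44, Isg15 and Oasl2 the highest E71Q library was replicate 1.

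The DNA before the start of these genes was searched for the core of the element that the interferon factors bind, spelled GAAA, any 2 bases (NN) and GAAA again or, on the other strand, TTTC, any 2 bases and TTTC. It was found in the 250 bases before the start in 12 of the 25 members with a RefSeq promoter (48.0%), against 295 of 9222 tested genes (3.2%) and 978 of all 32851 promoters (2.98%). Among the 25, it was present in 8 of 19 called members and in 4 of 6 members that were not called. Overlapping matches were counted once for a promoter. The 3 called members with the largest rise that hold a match are shown with the matched letters in capitals, from RefSeq on GRCm38.p6, 5′ to 3′ on the gene's strand, ending at the base before the start. They are Isg15 (chr4:156200819-156201068, minus strand), Gbp2 (chr3:142620413-142620662, plus strand) and Gbp3 (chr3:142559794-142560043, plus strand), where Gbp2 and Gbp3 encode guanylate-binding proteins.
Isg15: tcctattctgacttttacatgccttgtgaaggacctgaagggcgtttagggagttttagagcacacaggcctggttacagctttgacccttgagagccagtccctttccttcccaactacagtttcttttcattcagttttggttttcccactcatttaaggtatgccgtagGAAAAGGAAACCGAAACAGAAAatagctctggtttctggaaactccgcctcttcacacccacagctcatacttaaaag
Gbp2: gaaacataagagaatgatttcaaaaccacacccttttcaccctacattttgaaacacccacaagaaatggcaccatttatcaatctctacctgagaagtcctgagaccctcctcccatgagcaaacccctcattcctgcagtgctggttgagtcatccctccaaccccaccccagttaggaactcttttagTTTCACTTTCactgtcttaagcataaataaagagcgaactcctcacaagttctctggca
Gbp3: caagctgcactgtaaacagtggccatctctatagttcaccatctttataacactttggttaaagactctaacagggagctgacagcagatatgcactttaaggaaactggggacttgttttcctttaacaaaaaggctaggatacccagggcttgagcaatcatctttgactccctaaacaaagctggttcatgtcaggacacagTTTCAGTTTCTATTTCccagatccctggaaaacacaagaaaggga

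The Isg15 promoter held 3 overlapping matches as spelled, the nearest ending 56 bases before the start. The Gbp2 promoter held 1 match and the Gbp3 promoter 2 overlapping matches on the other strand, 49 and 29 bases before the start. Gbp2 had 39.3, 45.8 and 44.6 TPM in E76Q and 23.5, 14.2 and 15.9 TPM in E71Q (log2 difference 1.26 ± 0.29). Gbp3 had 72.3, 79.6 and 74.8 TPM in E76Q and 39.7, 31.5 and 26.7 TPM in E71Q (log2 difference 1.20 ± 0.37), a call that was lost in 5 of the 6 fits that left out a library. Both genes were higher in every E76Q library, both were above WT in both mutants, and they are named here for their promoters, after their values were seen. Guanylate-binding proteins and MHC class I genes are families of near-identical copies, between which reads may be split.

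Of 10 tested chemokine genes 4 rose and none fell (10.1% of all tested genes rose), with a median difference of 1.26. Cxcl12, which attracts blood progenitors and lymphocytes, had 2636, 2779 and 2728 TPM in E76Q and 370, 777 and 827 TPM in E71Q, with WT between them at 920.4 to 975 TPM (log2 difference 2.13 ± 0.30; limma adjusted p = 4e-05). Ccl5, which attracts T cells, had 113.3, 121 and 121 TPM in E76Q and 20.2, 17.4 and 29.6 TPM in E71Q. Cx3cl1, a membrane-bound chemokine, had 55.9, 62.3 and 60.1 TPM in E76Q and 12.9, 15.2 and 14.8 TPM in E71Q. Every E76Q library was above every E71Q library for both (log2 differences 2.38 ± 0.35 and 1.99 ± 0.22). Cxcl10, itself induced by interferon, had 5.97, 6.28 and 5.29 TPM in E76Q and 2.40, 0.269 and 0.865 TPM in E71Q (log2 difference 1.77 ± 0.43). Without E71Q replicate 1, 6 chemokine genes rose.

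Among 22 tested genes of NF-kB and interleukin signalling, 8 rose and 1 fell, against 10.1% risen and 10.6% fallen among all tested genes. The median difference of the members was 0.22. Beside Il1rn, Ptx3, a secreted pattern-recognition protein, had 247, 268 and 259 TPM in E76Q and 46.9, 56.4 and 63.9 TPM in E71Q, and only 3.34 to 3.99 TPM in WT (log2 difference 2.20 ± 0.29). Tnfaip2, a TNF-induced protein, rose by 1.11 ± 0.11. Nfkbiz, an inducible nuclear IkB protein, was the fallen member, with 1.5, 1.53 and 1.93 TPM in E76Q and 5.37, 3.96 and 3.56 TPM in E71Q (log2 difference -0.99 ± 0.16). The number of risen members was 5 without E71Q replicate 1, replicate 2 or E76Q replicate 3, and 4 without E76Q replicate 2.

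Of 23 tested cholesterol synthesis genes 13 fell in E76Q and none rose, against 10.6% fallen among all tested genes. The pathway builds cholesterol from acetyl-CoA through mevalonate and squalene, and its genes are switched on together by SREBP-2 when sterols run low. The median difference over the 23 members was -0.81. Relative to WT, the median over the members was -0.34, -0.39 and -0.38 in the E76Q libraries and -0.25, 0.71 and 0.73 in the E71Q libraries. E71Q replicate 1 therefore lay near the E76Q libraries and its mates lay above WT. Without E71Q replicate 1, 18 members fell and the median difference was -1.22, and without each of the other libraries 9 to 12 fell.

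Tm7sf2, a sterol reductase, had 12, 11 and 11.7 TPM in E76Q and 20.4, 98.8 and 101 TPM in E71Q (log2 difference -2.26 ± 0.53; limma adjusted p = 0.00493), and the difference was -3.00 without E71Q replicate 1. Mvd, mevalonate diphosphate decarboxylase, had 13.7, 14.6 and 14.6 TPM in E76Q and 39.7, 96.6 and 83.5 TPM in E71Q (log2 difference -2.19 ± 0.27; limma adjusted p = 8.58e-06). All E76Q libraries of both genes were below all E71Q and below WT, while E71Q replicate 1 lay between the E76Q libraries and its mates. Mvk, mevalonate kinase, had 30.3, 27.3 and 28.2 TPM in E76Q and 53.9, 112 and 111 TPM in E71Q (log2 difference -1.58 ± 0.24). Msmo1, a sterol oxidase, had 141, 144 and 140.5 TPM in E76Q and 215, 533 and 565 TPM in E71Q (log2 difference -1.5 ± 0.32). A sterol response element spelled TCACNCCAC, or GTGGNGTGA on the other strand, stood before the start of 1 of the 16 members with a promoter in the table (6.25%) and of none of the 10 called ones, against 108 of 9222 tested genes (1.17%) and 346 of 32851 promoters (1.05%).

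**Figure D3:**
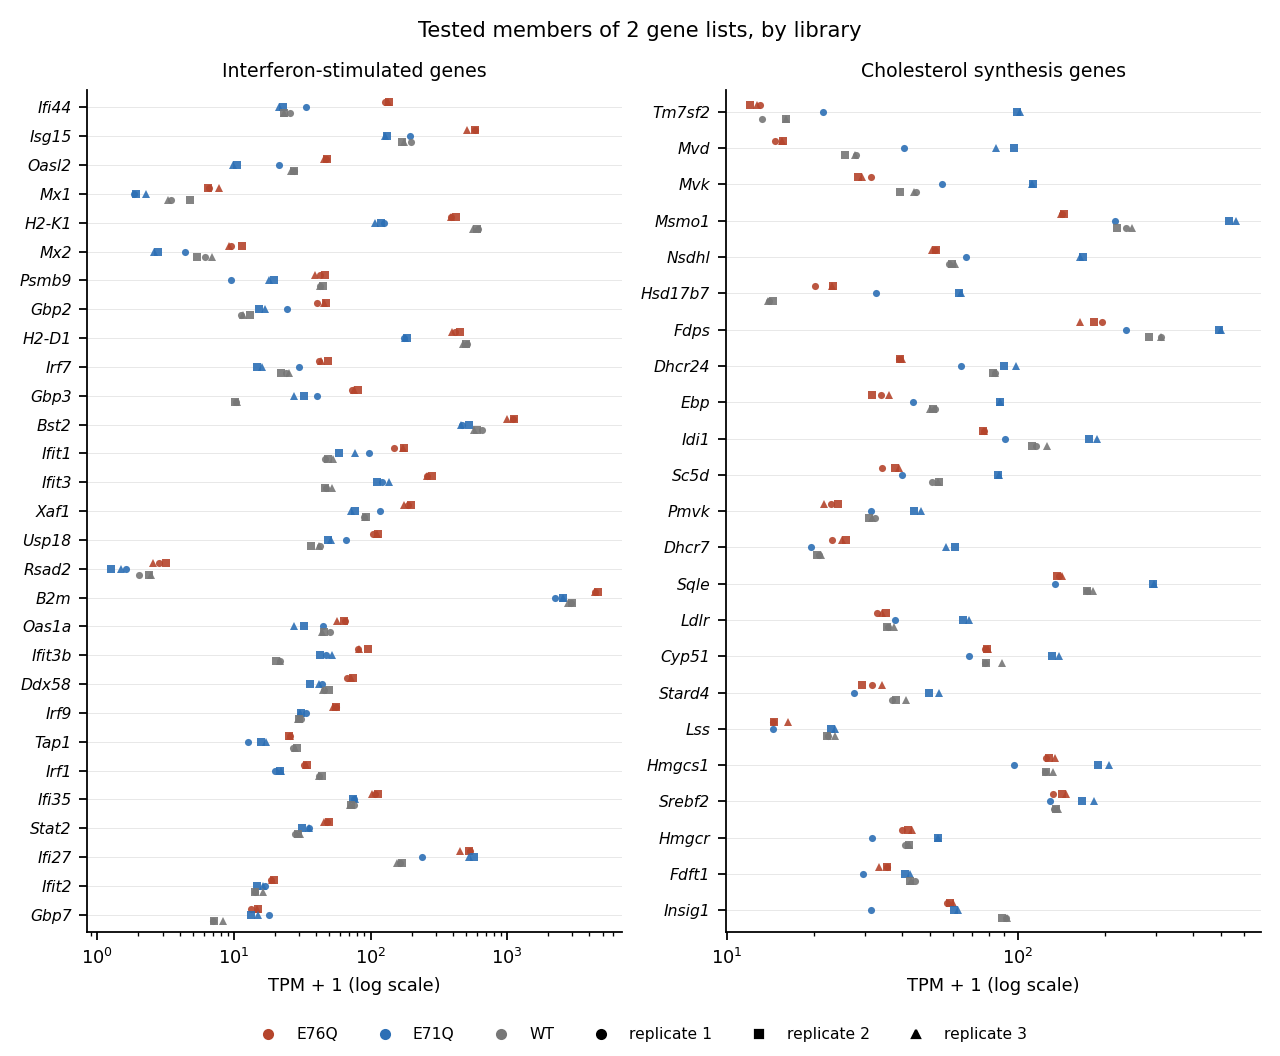
TPM + 1 in each library (log scale) for the tested interferon-stimulated genes, of which 1 is not shown, and all 23 tested cholesterol synthesis genes, ordered by the size of the difference, with E76Q in red, E71Q in blue and WT in grey, and a marker shape for each replicate. E76Q libraries lie to the right of E71Q for most interferon-stimulated genes, and for the cholesterol genes E71Q replicate 1 (blue circles) lies between E76Q and its mates or beside E76Q.

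Of 24 tested genes of fatty acid synthesis and oxidation 4 fell and 1 rose, against 10.6% fallen and 10.1% risen among all tested genes, with a median difference of -0.23. Cpt1a, which carries fatty acids into mitochondria, had 15.2, 16.4 and 16.3 TPM in E76Q and 25.8, 34.4 and 36.2 TPM in E71Q (log2 difference -0.95 ± 0.13). Pdk4, a kinase that shuts off pyruvate dehydrogenase, was the risen member, with 9.87, 11.2 and 10.6 TPM in E76Q and 2.64, 3.72 and 3.81 TPM in E71Q. Without E71Q replicate 1, 8 members fell.

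Of 10 tested fat cell genes 5 fell and 2 rose, against 10.6% fallen and 10.1% risen among all tested genes, with a median difference of -0.90. Zfp423, a transcription factor that commits cells to the fat lineage, had 0.201, 0.353 and 0.154 TPM in E76Q and 3.78, 6.04 and 5.53 TPM in E71Q, against at most 0.242 TPM in WT (log2 difference -2.29 ± 0.23). The E76Q libraries were thus at the level of WT and the E71Q libraries above it. Pparg, the nuclear receptor that drives fat cell differentiation, had 12.5, 12.7 and 13.6 TPM in E76Q and 30.8, 27.9 and 30.5 TPM in E71Q, on either side of WT at 18.9 to 21.4 TPM (log2 difference -1.14 ± 0.12; limma adjusted p = 1.28e-06). Scd1, a fatty acid desaturase, fell by 1.06 ± 0.28, a call that was lost without E71Q replicate 2 or 3. Cebpa, which acts with Pparg, went the other way, with 2.80, 3.22 and 2.95 TPM in E76Q and 0.520, 0.622 and 0.770 TPM in E71Q (log2 difference 1.29 ± 0.18).

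Of 11 tested smooth muscle and contractile genes 8 rose and none fell, against 10.1% risen among all tested genes, with a median difference of 0.95, and 6 or 7 rose without each library in turn. Relative to WT the median over the members was 0.40, 0.53 and 0.42 in the E76Q libraries and -0.64, -0.41 and -0.36 in the E71Q libraries, so the groups lay on opposite sides of WT. Acta2, the alpha actin of smooth muscle and myofibroblasts, had 480, 513 and 582 TPM in E76Q and 63.9, 80.9 and 80.0 TPM in E71Q, with 96.3 to 104 TPM in WT (log2 difference 2.80 ± 0.15; limma adjusted p = 4.91e-10). Mylk, the myosin light chain kinase, had 18.4, 21.6 and 16.2 TPM in E76Q and 2.58, 3.70 and 4.48 TPM in E71Q. Lmod1, a leiomodin that nucleates actin filaments, had 4.05, 4.54 and 5.01 TPM in E76Q and 0.265, 0.310 and 0.332 TPM in E71Q. No library of one group reached the range of the other for Acta2, Mylk or Lmod1 (log2 differences of Mylk and Lmod1 2.12 ± 0.33 and 2.08 ± 0.21). In the list of YAP and TEAD genes 4 of 17 rose and 2 fell (median 0.31), and 2 to 4 rose without each library in turn, with Ankrd1 at 9.26, 9.15 and 10.3 TPM in E76Q and 2.40, 2.56 and 2.02 TPM in E71Q (log2 difference 1.67 ± 0.37). The WT libraries had 28.6 to 32.0 TPM of Ankrd1.

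Products of matricellular genes sit in the matrix and signal to cells. Of 16 tested members 9 rose and 1 fell, against 10.1% risen among all tested genes, with a median difference of 1.26. Beside Smoc2 and Postn, Thbs2 (thrombospondin 2) had 25.4, 26.9 and 28.1 TPM in E76Q and 1.94, 3.2 and 4.22 TPM in E71Q, against 33.5 to 35.5 TPM in WT (log2 difference 2.79 ± 0.18). Wisp2, a CCN family protein, had 112, 125 and 122 TPM in E76Q and 29.4, 20.8 and 20.7 TPM in E71Q, against 19.7 to 23.1 TPM in WT (log2 difference 2.31 ± 0.38). Every E76Q and E71Q library was thus below WT for Thbs2, E71Q by more, and every E76Q library was above WT for Wisp2, where the E71Q libraries overlapped WT. Leaving out a library in turn gave 8 or 9 risen members and 1 fallen.

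Tendon and ligament genes gave 3 risen and 1 fallen of 8 tested members, beside 10.1% and 10.6% of all tested genes. The median difference was 1.14, and the counts were the same without each library in turn. Tnc (tenascin C) had 64.7, 70.4 and 75.2 TPM in E76Q and 20.2, 27.2 and 30.6 TPM in E71Q (log2 difference 1.42 ± 0.27). Mkx (mohawk), a homeobox factor of tendon, had 13.2, 12.3 and 13.9 TPM in E76Q and 5.96, 7.32 and 6.36 TPM in E71Q (log2 difference 0.91 ± 0.19). Col12a1, a collagen that coats fibrils, was the fallen member, with 9.44, 10.1 and 12.5 TPM in E76Q and 17.6, 21.5 and 23.2 TPM in E71Q (log2 difference -0.89 ± 0.19).

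Hedgehog pathway genes gave 5 risen and no fallen of 9 tested members, against 10.1% risen among all tested genes. The median difference was 0.84, and 4 to 6 members rose without each library in turn. Ptch1, the hedgehog receptor and a target of the pathway, had 43.1, 45.5 and 46.5 TPM in E76Q and 12.4, 8.2 and 11.6 TPM in E71Q, with 14.4 to 16.2 TPM in WT (log2 difference 1.99 ± 0.18; limma adjusted p = 2.22e-07). Cdon, a co-receptor, had 23.7, 24.4 and 28.9 TPM in E76Q and 5.18, 10.9 and 12.2 TPM in E71Q. Foxf2, a forkhead factor downstream of hedgehog in mesenchyme, had 22.1, 25.2 and 22.8 TPM in E76Q and 10.3, 9.29 and 7.59 TPM in E71Q. Gli3, a transcription factor that mostly represses targets, rose by 0.62 ± 0.15. The groups did not overlap in these 4 genes (log2 differences of Cdon and Foxf2 1.43 ± 0.29 and 1.28 ± 0.21).

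Wnt genes changed in both directions. Of 17 tested members 6 rose and 3 fell, against 10.1% risen and 10.6% fallen among all tested genes, with a median difference of 0.55. Lef1 and Tcf7 belong to 1 family of factors that act with beta-catenin, and they went opposite ways: Lef1 had 4.28, 5.45 and 4.58 TPM in E76Q and 0.672, 1.25 and 1.12 TPM in E71Q (log2 difference 1.52 ± 0.21), while Tcf7 was the largest fall of all named. Wif1, a secreted inhibitor that binds Wnt, had 8.79, 10.1 and 8.77 TPM in E76Q, was at most 0.142 TPM in E71Q and at most 0.0989 TPM in WT (log2 difference 3.29 ± 0.14; limma adjusted p = 2.33e-11). Rspo2, a secreted enhancer of Wnt signalling, had at least 106 TPM in every E76Q library and 9.69, 35.6 and 39.1 TPM in E71Q (log2 difference 2.16 ± 0.46, and 1.54 without E71Q replicate 1). Every E76Q library was above every E71Q library. WT had 3.97 to 4.72 TPM of Rspo2, so that both mutants lay above WT.

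BMP genes, which steer cells towards bone and cartilage, gave 9 risen and 4 fallen of 22 tested members. Among all tested genes 10.1% rose and 10.6% fell, and the median difference of the members was 0.42. Id4, an inhibitor of basic helix-loop-helix factors, had 20.8, 20.4 and 19.4 TPM in E76Q and 3.02, 1.46 and 1.83 TPM in E71Q, and at most 0.191 TPM in WT (log2 difference 2.80 ± 0.17). Grem1, a secreted BMP antagonist, had 2.31, 2.66 and 3.53 TPM in E76Q and 0.639, 0.0823 and 0.176 TPM in E71Q, against 49.8 to 54.6 TPM in WT (log2 difference 1.57 ± 0.39). Other antagonists were lower in E76Q: Nbl1 had 10.6, 12.4 and 12.6 TPM in E76Q and 87.5, 64.2 and 61.6 TPM in E71Q (log2 difference -2.47 ± 0.18), and Chrd (chordin) had 0.133, 0.238 and 0.169 TPM in E76Q and 3.16, 2.49 and 2.62 TPM in E71Q (log2 difference -1.67 ± 0.15). For Nbl1 and Chrd the WT values lay outside the E76Q range, at 38.6 to 40.3 TPM and 2.28 to 2.34 TPM. The counts were 6 to 8 risen and 2 to 4 fallen without each library in turn, with 6 risen without E76Q replicate 2 and 2 fallen without E76Q replicate 3.

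Genes of other growth factor pathways were called in both directions, beside 10.1% risen and 10.6% fallen among all tested genes. Of 17 tested FGF genes 3 rose and 1 fell (median -0.06). Fgfr2, an FGF receptor, had 16.3, 21.2 and 18.4 TPM in E76Q and 1.80, 2.97 and 1.75 TPM in E71Q, with at most 0.135 TPM in WT (log2 difference 2.64 ± 0.32). Spry1, a feedback inhibitor, had 8.37, 9.18 and 8.16 TPM in E76Q and 0.696, 3.17 and 2.64 TPM in E71Q (log2 difference 1.70 ± 0.23). Of 11 tested IGF genes 2 rose and 2 fell (median -0.24), and Igfbp5, an IGF-binding protein, had 8.54, 9.51 and 9.05 TPM in E76Q and at most 0.0657 TPM in E71Q, with WT at 5.25 to 8.42 TPM (log2 difference 3.29 ± 0.71). Of 7 tested Notch genes 2 fell and none rose (median -0.05), Lfng by 1.05 ± 0.16 and the ligand Jag1 by 0.78 ± 0.16. Of 19 tested TGF-beta genes 3 fell and 1 rose (median -0.07), the risen ligand gene Tgfb2 losing its call without each of the 6 libraries in turn. Tgfbr2, the type II receptor, had 23.4, 25.5 and 26.0 TPM in E76Q and 42.9, 64.7 and 68.4 TPM in E71Q, against 54.9 to 57.9 TPM in WT (log2 difference -1.17 ± 0.23).

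Of 18 tested cartilage genes 3 rose and 4 fell, against 10.1% risen and 10.6% fallen among all tested genes. The members' median difference was 0.25 with all libraries and -0.07 without E71Q replicate 1. The median over the members relative to WT was 2.42, 2.57 and 2.54 in the E76Q libraries and 2.32, 2.60 and 2.78 in the E71Q libraries, so both mutants were far above WT and their library medians interleaved. Sox9, the master factor of cartilage, had 151, 166 and 162 TPM in E76Q and 146, 171 and 196 TPM in E71Q, and the 95% interval of its difference ran from -0.52 to 0.35. Col2a1, the main cartilage collagen, had 436, 478 and 458 TPM in E76Q and 207, 216 and 243 TPM in E71Q, both above WT at 42.1 to 44.4 TPM (log2 difference 1.04 ± 0.29; limma adjusted p = 0.0162). The call of Col2a1 was lost without E71Q replicate 2 or E76Q replicate 2. Col9a1, a collagen that coats cartilage fibrils, had 246, 266 and 247 TPM in E76Q and 21.7, 66.6 and 73.7 TPM in E71Q (log2 difference 2.39 ± 0.52). Acan, which encodes aggrecan, had at most 0.0425 TPM in the 6 libraries and was not tested.

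The fallen cartilage genes were Matn4, Hapln1, Cytl1 and Col11a2, the last by 0.82 in a call that was lost in 5 of the 6 fits that left out a library. Matn4, a matrilin, had 1.57, 1.70 and 1.59 TPM in E76Q and 14.5, 66.8 and 79.3 TPM in E71Q, and its log2 difference was -4.07 ± 0.59 with all libraries and -4.82 without E71Q replicate 1. Hapln1, the link protein of hyaluronan and aggrecan, had 1.06, 1 and 0.852 TPM in E76Q and 17.1, 29.2 and 35.9 TPM in E71Q (log2 difference -3.79 ± 0.48). Cytl1, a small secreted protein of cartilage, had 12.7, 11.5 and 13 TPM in E76Q and 146, 90.9 and 99.2 TPM in E71Q (log2 difference -3.05 ± 0.45). Hapln1 and Cytl1 were listed at 0 in all WT libraries, so that Cytl1 was above WT in both mutants and lower in E76Q than in E71Q.

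Bone genes were tested for 10 members, of which 2 rose and 1 fell, beside 10.1% and 10.6% of all tested genes. The median difference of the members was -0.42. Omd (osteomodulin) had 13.4, 13.4 and 12.2 TPM in E76Q and 2.16, 2.82 and 3.63 TPM in E71Q (log2 difference 1.87 ± 0.25). Runx2, the master factor of bone, had 13.4, 17.2 and 22.0 TPM in E76Q and 5.64, 6.98 and 11.5 TPM in E71Q, and its call (limma adjusted p = 0.0213) was lost without E71Q replicate 1 or 2 or E76Q replicate 2 or 3. Sp7, which acts after Runx2, had at most 0.151 TPM and was not tested. Bglap2, an osteocalcin gene whose near-identical copies make its counts uncertain, had 116, 94.3 and 92.1 TPM in E76Q and 99.9, 890 and 1000 TPM in E71Q, against at most 0.943 TPM in WT. E71Q replicate 1 lay within the E76Q range and the other two above it, and the 95% interval of the difference ran from -4.84 to 0.55.

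Matrix genes were called in both directions, beside 10.1% risen and 10.6% fallen among all tested genes. Of 9 tested small leucine-rich proteoglycans 3 rose and 2 fell (median 0.14), with the same counts without each library in turn. Ogn (osteoglycin) had 355, 390.1 and 397 TPM in E76Q and 28.6, 87.8 and 107 TPM in E71Q (log2 difference 2.54 ± 0.60), while Dcn (decorin) had 73.1, 75.6 and 70.6 TPM in E76Q and 228, 416 and 507 TPM in E71Q (log2 difference -2.30 ± 0.40). Aspn, Ogn and Omd lie side by side on chromosome 13 within the span of Cenpp. Of 17 tested genes of elastin, fibulins and microfibrils 3 rose and 6 fell (median 0.24). Fbn2 (fibrillin 2) had 4.37, 4.60 and 5.5 TPM in E76Q and at most 0.0521 TPM in E71Q (log2 difference 2.50 ± 0.14), and Mfap5, a microfibril protein, fell by 1.5 ± 0.22. Of 17 tested collagen genes 2 rose and 3 fell (median -0.20), shares near those of all tested genes, with Col6a3 at 116, 131 and 150 TPM in E76Q and 243, 292 and 295 TPM in E71Q (log2 difference -1.06 ± 0.23). Col1a1, the main collagen of bone and skin, had 1218, 1324 and 1326 TPM in E76Q and 1095, 924 and 987 TPM in E71Q, a log2 difference of 0.37 ± 0.12 whose call was lost under 8 of 20 alternatives.

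Of 22 tested matrix proteases and inhibitors 6 rose and 3 fell (median 0.16), against 10.1% risen and 10.6% fallen among all tested genes. Adamts9, a versican-cutting protease, had 6.17, 7.16 and 7.41 TPM in E76Q and 0.322, 0.454 and 0.412 TPM in E71Q (log2 difference 2.50 ± 0.20). Mmp19, a matrix metalloproteinase, had 37.2, 39.7 and 35.8 TPM in E76Q and 4.94, 8.27 and 10.2 TPM in E71Q (log2 difference 2.18 ± 0.35). Of 24 tested genes of heparan sulfate and hyaluronan 6 rose and 5 fell (median 0.13), and 2 rose without E71Q replicate 1 or E76Q replicate 3. Hs6st2, which sulfates heparan, had 11.9, 11.8 and 12 TPM in E76Q and 0.318, 0.276 and 0.397 TPM in E71Q (log2 difference 3.28 ± 0.12). Has1, a hyaluronan synthase, had 0.0817, 0.223 and 0.111 TPM in E76Q and 16.4, 7.01 and 7.57 TPM in E71Q, while WT had 6.65 to 7.77 TPM (log2 difference -3.22 ± 0.25). The heparan sulfate proteoglycan Sdc3 fell by 1.97 ± 0.16.

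Of 18 tested adhesion receptor genes 9 fell and 1 rose, against 10.6% fallen among all tested genes, with a median difference of -0.39, and 7 or 9 fell without each library in turn. Integrin Itga6, a laminin receptor subunit, had 22.3, 22.4 and 24.0 TPM in E76Q and 51.1, 64.0 and 65.6 TPM in E71Q (log2 difference -1.35 ± 0.19). Itgb3, a subunit of the vitronectin receptor, had 20.7, 23.0 and 23.6 TPM in E76Q and 41.7, 71.1 and 72.0 TPM in E71Q, both above WT at 6.12 to 6.38 TPM (log2 difference -1.38 ± 0.30). Itgbl1, an integrin beta-like protein, fell by 1.44 ± 0.31. The risen member was Cdh11, the cadherin of mesenchymal cells, with 53.6, 59.4 and 58.6 TPM in E76Q and 1.75, 2.94 and 3.27 TPM in E71Q, on either side of WT at 12.3 to 12.5 TPM (log2 difference 4.02 ± 0.36; limma adjusted p = 1.76e-07).

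Retinoic acid genes gave 4 fallen and 1 risen of 10 tested members, beside 10.6% and 10.1% of all tested genes. The median difference was -0.37, and 4 members fell without each library in turn. The risen member was Rxra, a partner of the retinoic acid receptors (0.46 ± 0.15), whose call was lost in 5 of the 6 fits that left out a library. Aldh1a1, an enzyme that makes retinoic acid, had 0.450, 0.461 and 0.680 TPM in E76Q and 4.65, 7.44 and 7.07 TPM in E71Q, both below WT at 11.2 to 13 TPM (log2 difference -2.25 ± 0.21). Its neighbour and close relative Aldh1a7 had 0.148, 0.284 and 0.122 TPM in E76Q and 8.96, 19 and 18.3 TPM in E71Q (log2 difference -3.73 ± 0.26), and reads may be split between the copies. Crabp2, which carries retinoic acid to its receptor, had 0.616, 0.631 and 0.471 TPM in E76Q and 3.96, 5.27 and 2.64 TPM in E71Q, against 35.6 to 37.5 TPM in WT. Cyp26b1, which breaks retinoic acid down, had 43.4, 47.3 and 48.5 TPM in E76Q and 88.2, 112 and 118 TPM in E71Q, against 5.27 to 5.63 TPM in WT. The fallen genes thus included a maker, a carrier and a breaker of retinoic acid (log2 differences of Crabp2 and Cyp26b1 -1.62 ± 0.20 and -1.17 ± 0.31).

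Transcription factors that pattern the mesenchyme gave 9 risen and 2 fallen of 24 tested members, beside 10.1% and 10.6% of all tested genes. The median difference was 0.28, and 6 to 9 members rose without each library in turn, with 6 without E76Q replicate 2. Tbx1, a T-box factor of the pharyngeal mesoderm, had 16.1, 17.6 and 17.1 TPM in E76Q and 0, 0 and 0.0800 TPM in E71Q, against 23.1 to 24.0 TPM in WT (log2 difference 4.13 ± 0.14; limma adjusted p = 4.6e-13). Foxc1, a forkhead factor of skull and eye mesenchyme, had 49.1, 52.1 and 52.4 TPM in E76Q and 8.36, 17.0 and 18.9 TPM in E71Q (log2 difference 1.80 ± 0.26). Of 10 tested Hox genes 2 rose and 1 fell (median 0.09). Hoxc9 had 24.0, 27.0 and 23.7 TPM in E76Q and 1.51, 1.32 and 1.42 TPM in E71Q, and at most 0.137 TPM in WT (log2 difference 3.42 ± 0.14; limma adjusted p = 7.01e-12), and Hoxc6 rose by 1.61 ± 0.21. Of the 8 Hoxa genes tested only Hoxa4 was called (log2 difference -0.64 ± 0.20), and its groups overlapped. The call was lost without E71Q replicate 2 or 3 or E76Q replicate 2 or 3, and also in the fit of only the 6 libraries. The labels do not say whether reads kept their strand, so those of Hoxa genes and of antisense genes across them may be shared.

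Genes of the ATF4 response, which raises amino acid supply under stress, gave 10 risen and no fallen of 23 tested members. Among all tested genes 10.1% rose and 10.6% fell. The median difference of the members was 0.44, and 9 or 10 rose without each library in turn. Ddit3 (CHOP), a transcription factor of the stress response, had 235, 226 and 218 TPM in E76Q and 78.9, 91.0 and 87.8 TPM in E71Q, with 178 to 197 TPM in WT (log2 difference 1.39 ± 0.12; limma adjusted p = 2.1e-07). Atf5, a relative of ATF4, had 349, 354 and 318 TPM in E76Q and 151, 138 and 156 TPM in E71Q, with 346 to 364 TPM in WT (log2 difference 1.19 ± 0.12). Slc6a9, a glycine transporter, had 11.5, 13.4 and 12.3 TPM in E76Q and 5.38, 3.10 and 2.81 TPM in E71Q (log2 difference 1.53 ± 0.22). The E71Q libraries were below WT in all 3 genes. The E76Q libraries were above WT for Ddit3, overlapped WT for Atf5 and were below it for Slc6a9, which had a mean of 24.5 TPM in WT. Relative to WT, the median over the 23 ATF4 members was -0.58, -0.59 and -0.62 in the E76Q libraries. It was -1.1, -0.98 and -0.78 in the E71Q libraries, so both mutants lay below WT by this median. Heat shock and unfolded protein genes gave 4 fallen and none risen of 26 (median -0.09), with Pdia6, a disulfide isomerase of the endoplasmic reticulum, at 207, 205 and 193 TPM in E76Q and 297, 411 and 432 TPM in E71Q (log2 difference -0.89 ± 0.13).

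Few cell cycle genes were called. Of 45 tested G1/S and DNA replication genes 2 rose and none fell (10.1% of all tested genes rose), the median difference was 0.05, and none rose without E71Q replicate 1. Of 42 tested G2/M genes 1 fell, Cdc25b, a phosphatase that starts mitosis (log2 difference -0.72 ± 0.14), and the median difference was 0.20. Both mutants were below WT by library medians of -1.04 to -0.98 in E76Q and -1.21 to -1.02 in E71Q for the G1/S genes. For the G2/M genes the library medians were -1.21, -1.21 and -1.19 in E76Q and -1.12, -1.67 and -1.51 in E71Q. The median difference of the G2/M genes was 0.36 without E71Q replicate 1. Mki67, a marker of dividing cells, had 20.8, 21.8 and 24.3 TPM in E76Q and 16.2, 14.1 and 17.2 TPM in E71Q, against 37.7 to 43.3 TPM in WT, and the 95% interval of its difference ran from -0.28 to 1.22. Of 21 tested CDK inhibitors, D cyclins and p53 targets 2 rose and 2 fell (median 0.14), among them Phlda3 (log2 difference -0.73 ± 0.14). Cdkn1a, the inhibitor p21, differed by -0.32 ± 0.10, a call that was lost under 6 of 20 alternatives.

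Ribosomal protein and proteasome genes had a smaller share of calls than the 20.8% of all tested genes. Of 82 tested ribosomal protein genes 7 rose and none fell (median 0.10), with Rps26 at 4550, 4462 and 4077 TPM in E76Q and 3443, 2893 and 3062 TPM in E71Q (log2 difference 0.48 ± 0.11). None of 31 proteasome genes was called (median -0.08), with 2 fallen without E71Q replicate 1. Of 46 respiratory chain genes 11 rose and none fell (median 0.29), but 3 rose and 2 fell without E71Q replicate 1, 5 rose without E76Q replicate 1 or 2, and 27 rose and 3 fell after the rescaling. Cyc1, a subunit of complex III, had 242, 244 and 236 TPM in E76Q and 130, 164 and 163 TPM in E71Q (log2 difference 0.66 ± 0.12). The genes of glycolysis and hypoxia gave 5 risen and 6 fallen of 27 (median -0.06), with Ndrg1, induced by hypoxia, at 41.7, 45.6 and 41.2 TPM in E76Q and 115, 107 and 109 TPM in E71Q (log2 difference -1.34 ± 0.12). Immediate early genes gave 2 risen and 3 fallen of 21 (median 0.18, and -0.34 without E71Q replicate 1). Klf2, a Krüppel-like factor, had 9.56, 11.4 and 9.01 TPM in E76Q and 78.8, 105 and 107 TPM in E71Q, with WT at 13.3 to 15.3 TPM (log2 difference -3.15 ± 0.29), and its relative Klf4 fell by 1.69 ± 0.19. Lysosome genes gave 3 risen and 1 fallen of 25 (median -0.06), and 7 fell without E71Q replicate 1 but none without each of the other 5 libraries. Gpnmb, a glycoprotein of lysosomes, had 11.4, 13.7 and 12.8 TPM in E76Q and at most 0.0773 TPM in E71Q, against 72.0 to 83.9 TPM in WT (log2 difference 3.69 ± 0.15). Of 7 tested imprinted genes 2 rose, with Plagl1 at 4.18, 4.19 and 5.29 TPM in E76Q and at most 0.0701 TPM in E71Q, against 4.04 to 5.01 TPM in WT.

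**Figure D4:**
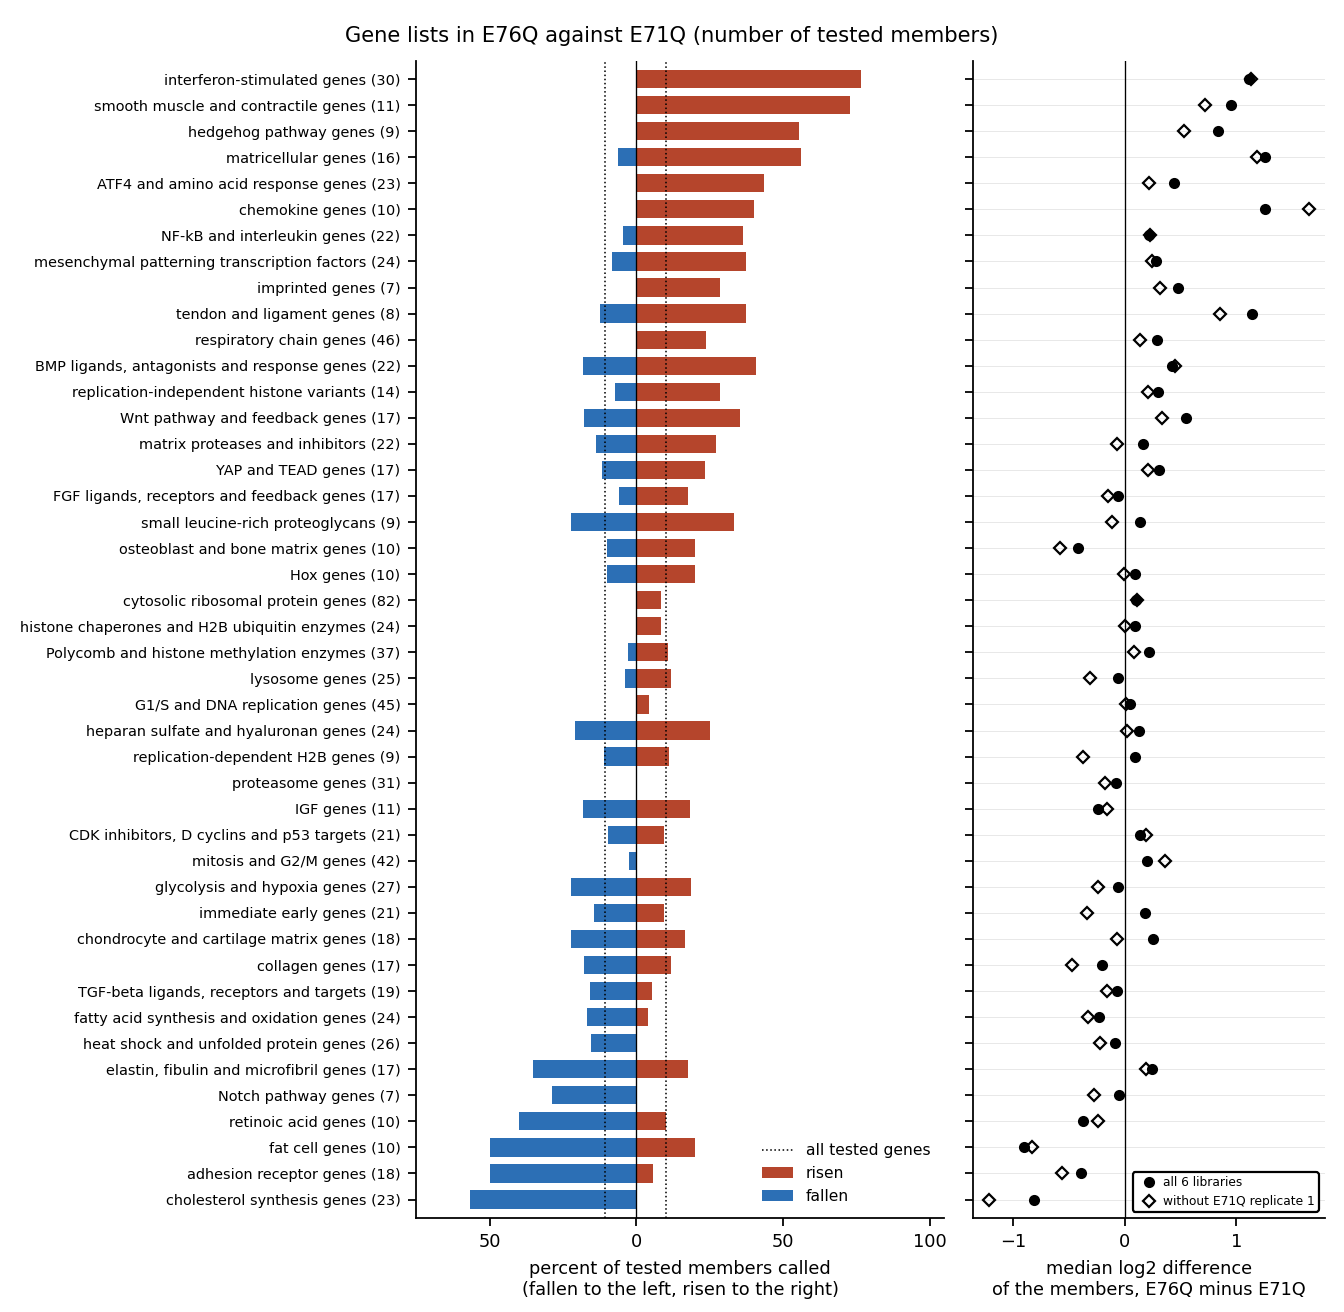
For each gene list (number of tested members in brackets), the left panel gives the percentage of tested members that fell (blue, to the left) and rose (red, to the right) in E76Q against E71Q, with dotted lines at the percentages of all tested genes, and the right panel the median log2 difference with all 6 libraries (filled circles) and without E71Q replicate 1 (open diamonds). Interferon-stimulated genes (23 of 30 risen) and cholesterol synthesis genes (13 of 23 fallen) are at the ends of the order.

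Chromatin genes were examined because H2B is a chromatin protein. The summed level of 18 H2B genes was 376, 402 and 387 TPM in E76Q and 301, 524 and 607 TPM in E71Q, against 137, 148 and 144 TPM in WT, and an introduced H2B cannot be told apart from the cells' own genes in these values. Both mutants were above WT and E71Q spanned E76Q. Of 9 tested replication-dependent H2B genes 1 rose and 1 fell, Hist2h2bb and Hist1h2bk, and both calls were lost without E76Q replicate 2. Histone genes are near-identical copies, so these values are uncertain. Of 14 tested histone variant genes 4 rose and 1 fell (median 0.30), beside 10.1% and 10.6% of all tested genes. Without each library in turn 2 to 4 of them rose. H2afy2, the macroH2A2 variant of H2A found in silent chromatin, had 19.2, 23.6 and 23.1 TPM in E76Q and 0.468, 0.376 and 0.377 TPM in E71Q, against 8.08 to 9.02 TPM in WT (log2 difference 4.02 ± 0.19; limma adjusted p = 6.28e-11). The groups lay on opposite sides of WT. H2afx, the variant marked at DNA breaks, had 95, 97.9 and 97.2 TPM in E76Q and 50.9, 45.5 and 55.7 TPM in E71Q (log2 difference 0.92 ± 0.19). Hist2h2be, an H2B gene whose RNA is made outside S phase as well, had 44.4, 49.2 and 52.8 TPM in E76Q and 76, 104 and 109 TPM in E71Q (log2 difference -0.95 ± 0.19).

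Genes that act on chromatin had a smaller share of calls than the 20.8% of all tested genes. Of 24 tested histone chaperones and H2B ubiquitin enzymes 2 rose and none fell (median 0.09), among them Cabin1 (log2 difference 0.59 ± 0.12). Of 37 tested Polycomb and histone methylation genes 4 rose and 1 fell (median 0.22), against 10.1% risen and 10.6% fallen among all tested genes. The risen share was thus near that of all tested genes, and 1 to 5 members rose without each library in turn. Ezh1, a methyltransferase of lysine 27 of H3, fell by 0.67 ± 0.18, a call that was lost without E71Q replicate 3.

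Some genes lay far from WT in both mutants. The 8 genes lowest in both against WT were Efemp1, Hist1h3a, Arl6ip1, Hist1h3h, Hba-a2, Plac8, Ppef1 and Msln, and the 8 highest were Bglap2, Cnmd, Mir140, Fmod, Mir22, Cytl1, Ucma and Wfdc12. They were chosen by their level against WT, so that part is a description. Arl6ip1, a shaper of the endoplasmic reticulum, had 1.13, 1.42 and 1.57 TPM in E76Q and 0.659, 1.03 and 1.5 TPM in E71Q, against 168 to 170.4 TPM in WT, and the 95% interval of E76Q minus E71Q ran from -0.20 to 0.64. Cnmd (chondromodulin), a cartilage glycoprotein, had 160, 160.5 and 140 TPM in E76Q and 37.2, 130 and 158 TPM in E71Q, against at most 0.207 TPM in WT, with an interval from -1.46 to 2.92. Fmod (fibromodulin) had 109, 123 and 112 TPM in E76Q and 29.2, 49.0 and 57.0 TPM in E71Q, against at most 0.442 TPM in WT, and its difference did not pass (1.38 ± 0.52; limma adjusted p = 0.0727). Only the interval of Arl6ip1 lay within 1 on the log2 scale among these 3, so an equal level in the mutants is not shown for Cnmd or Fmod.

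Others of these genes did differ between the mutants. Plac8, a small cysteine-rich protein, had 16.4, 12 and 11.2 TPM in E76Q and 0.795, 0.256 and 0.274 TPM in E71Q, against 197 to 202 TPM in WT (log2 difference 3.30 ± 0.20; limma adjusted p = 1.95e-09). Msln (mesothelin), a surface protein of mesothelium, went the other way, with 0.149, 0 and 0 TPM in E76Q and 12.5, 8.95 and 6.82 TPM in E71Q, against a mean of 104 TPM in WT (log2 difference -3.28 ± 0.35; limma adjusted p = 1.66e-06). Ppef1, a protein phosphatase, rose by 1.34 ± 0.18, and Wfdc12, a secreted protease inhibitor, fell by 1.81 ± 0.40. Efemp1, a fibulin, had 0.449, 0.805 and 0.973 TPM in E76Q and 1.04, 3.33 and 2.88 TPM in E71Q, against 344 to 356 TPM in WT, and its call (limma adjusted p = 0.0305) was lost without E71Q replicate 2 or 3 or E76Q replicate 1 or 2.

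The called genes were spread unevenly over the chromosomes, which is given as a description without a test. Among all tested genes 10.1% rose and 10.6% fell. Of 314 tested genes on chromosome 18, 65 rose and 13 fell, and of 467 on chromosome 13, 81 rose and 24 fell. The median difference was 0.26 on both, beside 0.04 over all tested genes. Chromosomes 10 (109 risen and 56 fallen of 583) and 15 (84 risen and 37 fallen of 481) had medians of 0.21 and 0.20. Without E71Q replicate 1, chromosome 10 had 61 risen and 65 fallen and chromosome 15 had 50 risen and 45 fallen. Their medians were then 0.11 and 0.12, beside -0.06 over all tested genes, of which 6.93% rose and 13.6% fell. Chromosomes 8 (51 risen and 117 fallen of 649), 12 (23 risen and 62 fallen of 399) and 5 (48 risen and 111 fallen of 750) had medians of -0.11, -0.10 and -0.07. After each library's own median was taken off, the median of chromosome 13 was 0.10, 0.10 and 0.12 in the E76Q libraries and -0.13, -0.10 and -0.08 in the E71Q libraries, and that of chromosome 18 was 0.10, 0.11 and 0.13 in E76Q and -0.16, -0.09 and -0.08 in E71Q. The median of chromosome 8 was -0.07, -0.07 and -0.08 in E76Q and 0.06, 0.10 and 0.08 in E71Q. The libraries of the 2 groups were thus apart on these 3 chromosomes, including E71Q replicate 1, as they were on several others. Without that library chromosome 13 had 57 risen and 29 fallen and chromosome 18 had 39 risen and 19 fallen, and their medians were both 0.14, beside -0.06 over all tested genes.

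**Figure D5:**
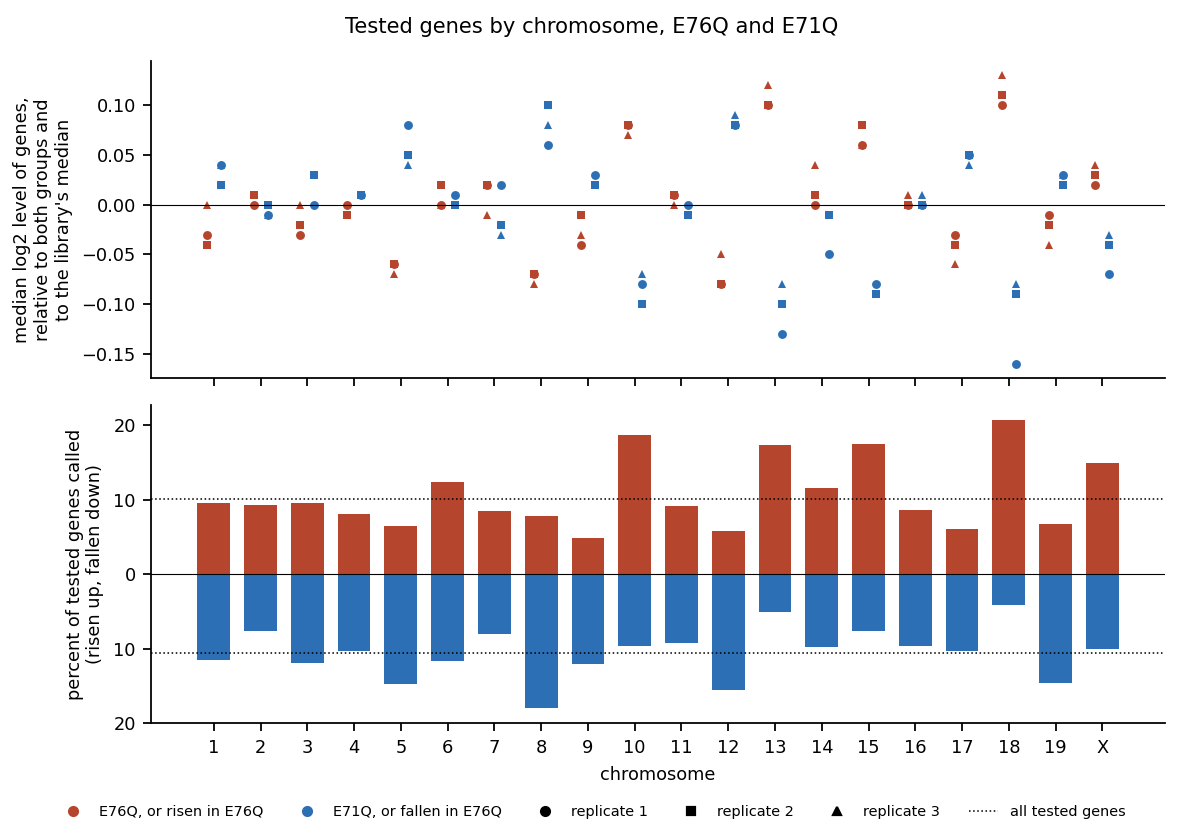
The upper panel gives for each chromosome (x axis) the median log2 level of its tested genes in each library, relative to the mean of both groups and to the library's own median, with E76Q in red, E71Q in blue and a marker shape for each replicate, and the lower panel the percentage of tested genes that rose (up, red) and fell (down, blue), with dotted lines at the percentages of all tested genes. On chromosomes 10, 13, 15 and 18 all E76Q libraries lie above all E71Q libraries, and on chromosomes 5, 8 and 12 below. The groups are also apart, by smaller margins, on others such as X (E76Q above) and 1 and 17 (E76Q below).

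Some called genes were neighbours. Taking tested genes in their RefSeq order, there were 8 runs of at least 5 neighbouring risen genes and 3 of fallen genes, named here after their values were seen. Among all tested genes 10.1% rose and 10.6% fell, and the number of runs that such shares would give was not tested. The longest held 7 risen genes on chromosome 15 (chr15:52712445-55072187, GRCm38.p6), from Med30 to Taf2, with differences of 0.44 to 3.62. It holds Ext1, an enzyme that extends heparan sulfate, with 131, 142 and 144 TPM in E76Q and 61.7, 68.1 and 72.0 TPM in E71Q, and Enpp2 (autotaxin), with 27.3, 28.8 and 27.8 TPM in E76Q and 0.950, 1.42 and 1.76 TPM in E71Q. Without E71Q replicate 1, 6 of the 7 were called. The risen run from Ggt5 to Mif on chromosome 10 kept 2 of its 5 calls without that library, the fewest of any run. Several of the other runs were clusters of genes known to respond to interferon: 6 Gbp genes on chromosome 5 (1.43 to 1.80), 6 genes with Sp110, Sp140 and Sp100 on chromosome 1 (1 to 1.77), 5 genes of the Trim30 and Trim34 family on chromosome 7 (0.86 to 2.45) and 5 MHC class I genes from H2-D1 to H2-Q7 on chromosome 17 (1.03 to 2.95). H2-Q4 had 138, 142 and 139 TPM in E76Q and 14.7, 20.1 and 17.1 TPM in E71Q, and no E71Q library came near an E76Q library. WT had 136 to 144 TPM of H2-Q4, so E76Q lay at the level of WT and E71Q below it. For H2-D1, H2-Q1, H2-Q2 and H2-Q7 the E76Q mean was below the WT mean and the E71Q mean was lower still. The means of H2-D1 were 420 TPM in E76Q, 178 TPM in E71Q and 495 TPM in WT. These clusters are multigene families, and reads may be split between their members.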

How the data were processed

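RNA of C3H/10T1/2 cells was extracted with an RNeasy kit and made into libraries with NEBNext Ultra II, per the labels' protocols. The authors deposited a table of TPM for 24091 genes in 21 libraries of 7 groups, and TPM was used as deposited. The submitters' processing notes name Salmon, featureCounts 1.4.4, DESeq and mm10, and the tool that made the TPM is not given in the sources used here. Read totals cannot be had from TPM, the depth is therefore unknown, and no counting interval or limit for a value of 0 is given. The authors' table of group means was not used.

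Groups came from the labels. Genes averaging 1 TPM or more across the 6 E76Q and E71Q libraries were tested as log2(TPM + 1), a scale that understates the change of low genes. With limma 3.58.1 (R 4.3.3), 1 linear model covered the 21 libraries in 7 groups. Variances were moderated with a trend on intensity (residual degrees of freedom 14, prior 3.39). The contrast is E76Q minus E71Q. The adjusted p is Benjamini-Hochberg over all tested genes, and a value under 0.05 is a call. SE is that of the model. An exact permutation test of 3 against 3 libraries could not go below p = 0.1 and was not used. Tables were made with pandas 2.3.3 in Python 3.11.15.

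The genes compared and the 50 lists were chosen with earlier results of these data known. Of 1326 list entries, 3 were not matched to a gene. Lists are described by counts and medians, with no set test. Some genes that the naming rule picks are not reported here. Named are the 12 largest rises and 12 largest falls with a mean of at least 5 TPM and groups that do not overlap, up to 4 called members of a list with the largest difference, the 8 highest and 8 lowest genes in both mutants against WT, and Runx2, Sp7, Pparg, Sox9, Col2a1, Acan, Acta2, Cdkn1a, Mki67, Col1a1, Cnmd, Fmod, Bglap2, Eln, Efemp1, the Hoxa and Hoxb genes tested and Mir6236. Positions and promoters are from RefSeq, GRCm38.p6, the assembly that mm10 names, matched by gene identifier for 11780 tested genes.

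The procedure was tested on simulated data with 200 of 11791 genes changed, with E76Q minus E71Q as the contrast. Recovery was 28% at 1.5-fold, 80% at 2-fold and 96% at 4-fold and at 8-fold, and 6 unchanged genes were called. The simulated noise was independent between genes and libraries, with the same SD for a gene in every group. It held neither the wider spread of E71Q nor a library that stands apart as E71Q replicate 1 does. The number of false calls in the real libraries is therefore not known from it. The alternatives were pseudocounts of 0.1 and 5, other filters, median-ratio rescaling on 8056 genes, quantile normalization, library weights, other moderation, only the 6 libraries, Mir6236 left out, replicate number as a block, and each library left out. A fit without genes whose RefSeq span is under 200 bases was added after the data were seen.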

Additional observations from a re-analysis of the deposited data

How the results depend on the processing

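With all choices as given, 1194 genes rose, 1253 fell, 466 rose and 391 fell at least 2-fold, and 9177 differed by less than 1 on the log2 scale over their whole interval. Rescaling, normalization and weights called more genes, and the cause was not tested: 2293 risen and 2117 fallen after median-ratio rescaling, 2204 and 2329 after quantile normalization, 2040 and 2111 with Mir6236 left out, and 3228 and 3836 with library weights. A pseudocount of 5 left 223 risen and 213 fallen genes at 2-fold or more, because it shrinks the differences of low genes. A filter at a mean of 5 TPM left 299 genes risen at least 2-fold, and no filter raised the genes with a small difference to 14909, both by the number of genes tested. Without each library in turn 806 to 1249 genes rose, 911 to 1600 fell, 421 to 505 rose at least 2-fold, 372 to 488 fell at least 2-fold and 8748 to 8900 had a small difference. Of the 181 named genes that were called, 133 were called under every alternative that tested them, and none of them changed sign.

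With a replicate block 1290 genes rose and 1326 fell. The numbers do not pair the samples: deviations from the group means correlated at -0.02, -0.12 and -0.04 between libraries of the same number. TPM keeps no depth, so how far depth limits the low genes cannot be told.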
